A study of Mus musculus with 16 samples.

Results

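A set of 9 acute phase and cytokine genes, out of the 19096 named genes on the array, were followed through white and brown fat of mice that lack the glucocorticoid receptor in adipose tissue. They are the serum amyloid A genes Saa1, Saa2 and Saa3, the haptoglobin gene Hp, the orosomucoid genes Orm1 and Orm2, the protease inhibitor gene Serpina3n, the inter-alpha-trypsin inhibitor gene Itih4 and the cytokine gene Il6. Every probe whose transcript accession belongs to one of these genes was taken, which gave 10 of 41174 probes. Saa1 had 2 probes and Il6 had 1 probe, which was spotted 10 times on each array. All but Il6 passed the filter on dim probes, so 8 genes were tested.

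Acute phase proteins are plasma proteins whose synthesis changes during inflammation and injury. Interleukin 6, the product of Il6, signals through a receptor that activates STAT3, while interleukin 1 and tumour necrosis factor act through NF-kB and C/EBP factors. Glucocorticoid acting through its receptor is known to raise several acute phase genes together with these cytokines, and to restrain many cytokine genes. The liver is the main source of acute phase proteins in blood, but fat makes several of them, haptoglobin and orosomucoid from adipocytes among them.

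Total RNA from adipose tissue of female mice was hybridised to 16 one-colour arrays, 4 in each of 4 groups. The groups were AdipoKO_WAT and CTL_WAT (white fat of knockout and control mice) and AdipoKO_BAT and CTL_BAT (brown fat of knockout and control mice). The labels describe a knockout of the glucocorticoid receptor specific to adipose tissue, and call the controls wild-type in one place and control in another. The Cre driver, the alleles, the age of the mice and the site of the white fat are not given in the sources used here. The level of a probe is the log2 of its processed signal minus the log2 of the array's 75th percentile of that signal, so levels of one probe can be compared between samples but not levels of different probes. The 75th percentile ran from 298 to 1035 over the arrays; precision is limited by how few arrays there are.

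The arrays of AdipoKO_WAT 1 and 2 were as alike as repeated spots on one array (their spread was 0.947 times the spot noise, against 1.69 times in the next closest pair). They were averaged to 1 sample, AdipoKO_WAT 1-2, which leaves 3 white fat knockout samples and 15 samples in all. Nr3c1, the receptor gene, ran from 1.36 to 1.64 in AdipoKO_WAT against 1.93 to 2.56 in CTL_WAT, and from 1.30 to 1.76 in AdipoKO_BAT against 2.33 to 2.70 in CTL_BAT. Its difference did not pass the test over all genes in white fat (adjusted p = 0.210) or in brown fat (adjusted p = 0.0814). The white fat samples differed in the levels of cell type markers, and those values are given beside the results that they move with. With bulk RNA, fewer cells of a type and less RNA per cell cannot be told apart.

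Promoter windows were available from RefSeq (build GRCm38.p6, from upstream of the start to just past it) for 7 of the 9 genes. The windows of Saa1, Saa2 and Saa3 are shown because these neighbouring genes on chromosome 7 differed in how they were measured, and those of Orm2 and Serpina3n because the results turn on these genes. Each runs 5′ to 3′ along its gene, and capitals mark matches on either strand to the letters TTNNGNAA (C/EBP), to GGGNN directly followed by TTNCC (NF-kB), or to GNACA and TGTNC spaced by NNN (the palindrome bound by the glucocorticoid receptor), where N is any base.
Saa1, chr7:46742931-46743230, minus strand: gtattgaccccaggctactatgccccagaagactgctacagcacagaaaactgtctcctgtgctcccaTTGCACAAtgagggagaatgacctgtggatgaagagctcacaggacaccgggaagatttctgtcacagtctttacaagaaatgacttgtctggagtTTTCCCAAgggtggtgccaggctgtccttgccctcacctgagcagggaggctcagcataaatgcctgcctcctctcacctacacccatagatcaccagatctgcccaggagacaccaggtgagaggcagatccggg
Saa2, chr7:46751583-46751882, plus strand: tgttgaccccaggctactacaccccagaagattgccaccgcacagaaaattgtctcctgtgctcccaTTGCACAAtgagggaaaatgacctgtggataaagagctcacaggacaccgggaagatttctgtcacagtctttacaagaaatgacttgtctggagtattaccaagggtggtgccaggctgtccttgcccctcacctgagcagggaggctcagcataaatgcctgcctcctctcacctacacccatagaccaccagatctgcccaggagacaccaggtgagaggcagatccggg
Saa3, chr7:46715627-46715926, minus strand: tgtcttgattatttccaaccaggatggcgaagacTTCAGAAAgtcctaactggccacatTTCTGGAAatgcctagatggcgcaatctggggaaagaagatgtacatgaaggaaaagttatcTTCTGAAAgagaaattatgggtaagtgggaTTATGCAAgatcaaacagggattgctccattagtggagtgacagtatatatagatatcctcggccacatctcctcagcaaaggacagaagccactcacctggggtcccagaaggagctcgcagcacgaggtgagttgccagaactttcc
Orm2, chr4:63362199-63362498, plus strand: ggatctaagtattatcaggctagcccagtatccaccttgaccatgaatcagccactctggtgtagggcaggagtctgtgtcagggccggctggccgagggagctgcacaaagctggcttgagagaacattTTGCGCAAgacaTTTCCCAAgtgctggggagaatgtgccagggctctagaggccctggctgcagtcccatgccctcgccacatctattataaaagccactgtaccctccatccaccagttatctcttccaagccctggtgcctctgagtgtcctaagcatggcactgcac
Serpina3n, chr12:104406458-104406757, plus strand: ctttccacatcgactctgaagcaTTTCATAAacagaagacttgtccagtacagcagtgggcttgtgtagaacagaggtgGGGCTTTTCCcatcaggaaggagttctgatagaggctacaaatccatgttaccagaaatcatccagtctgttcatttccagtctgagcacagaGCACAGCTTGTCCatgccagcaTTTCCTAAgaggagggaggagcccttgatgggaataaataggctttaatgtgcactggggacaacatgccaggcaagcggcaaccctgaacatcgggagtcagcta

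The C/EBP letters occurred in 6 of the 7 windows, in Saa3 at 4 places, in Saa1, Orm2 and Serpina3n at 2 places and in Saa2 and Il6 at 1 place. They are loose letters, and 40.7% of all 32851 windows in the table hold them. In Saa3 the matches began 216, 191, 129 and 99 bases before the start. The NF-kB letters occurred in Serpina3n and in Il6, against 4.79% of all windows. The STAT letters TTCNNNGAA occurred in Itih4 alone of the 7, where 8.3% of all windows hold them. The glucocorticoid receptor palindrome occurred in Serpina3n alone of the 7, beginning 78 bases before the start, and 0.475% of all windows hold it. The shorter receptor letters AGAACA, which are not in capitals above and which 19.0% of windows hold, occurred in Orm2 and Serpina3n. A match describes the letters and not a bound site.

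The windows of Saa1 and Saa2 were identical at 287 of 301 alignment columns, or 95.3%, whereas those of Saa1 and Saa3 were identical at 50.9%. The transcripts of Saa1 and Saa2 are known to be near copies of each other, as are those of Orm1, Orm2 and Orm3. Older names of Saa1 and Saa2 are swapped in the annotation, and probe sequences were not used here. Which of these close copies a probe reads is therefore uncertain, and values of Saa1, Saa2, Orm1 and Orm2 are those of the probe assigned by accession.

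**Figure D1:**
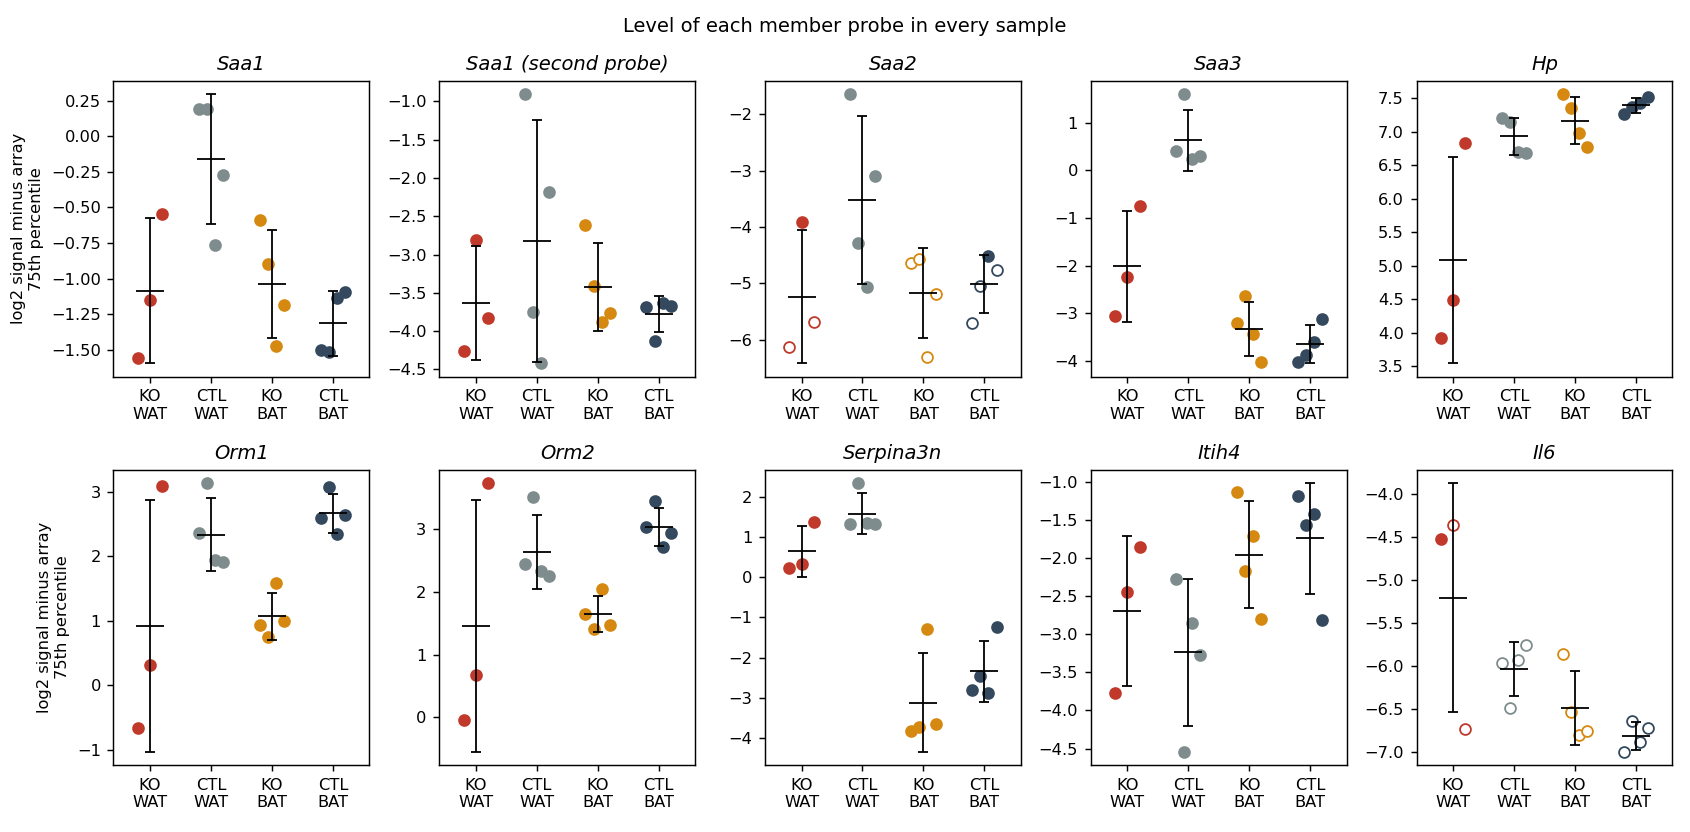
Level of each probe (log2 signal minus the array's 75th percentile, y axis) in every sample of AdipoKO_WAT (n = 3), CTL_WAT, AdipoKO_BAT and CTL_BAT (n = 4 each), with the mean ± SD as bars. Filled points were well above background and open points were not. Saa3 in white fat has all 3 knockout samples below all 4 controls, and Orm1 and Orm2 in brown fat have all 4 knockout samples below all 4 controls.

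The white fat comparison asked how the acute phase genes stand in knockout against control white fat. None of the 8 tested genes passed the limma test over all 25105 genes and unnamed probes, where 0.0597% passed. Of the 8, 7 had a lower mean in AdipoKO_WAT, with a median difference of -1.30 over the 8 genes, against 0.24 over all genes tested. An unadjusted p under 0.05 was found for 5 of the 8, namely Saa1, Saa2, Saa3, Hp and Orm1, and for 17.9% of all genes. Saa2 passed the filter on dim probes only through CTL_WAT, where it was high. Its lower mean in AdipoKO_WAT is therefore no separate support in these counts. For Saa1, Saa3, Hp, Orm1, Orm2 and Serpina3n, AdipoKO_WAT 1-2 and 3 lay below AdipoKO_WAT 4.

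Saa3 encodes a serum amyloid A that mouse adipocytes and macrophages make outside the liver. Its level was -3.06 in AdipoKO_WAT 1-2, -2.23 in AdipoKO_WAT 3 and -0.75 in AdipoKO_WAT 4, against 0.41, 1.59, 0.24 and 0.29 in CTL_WAT 1 to 4. Every knockout sample lay below every control, which held for 1.23% of all genes, while groups were apart in either direction for 7.7%. The difference of -2.65 ± 0.50 (SE), 6.27-fold, had an adjusted p of 0.0961 and did not pass. The exact permutation test of the group means (two-sided) gave p = 0.0286, the smallest that these group sizes allow. Within the 4 slides the Saa3 difference was -2.64, -4.63, -0.99 and -3.38, where slides 2 and 4 hold the arrays averaged as AdipoKO_WAT 1-2.

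Saa1 and Saa2 encode the serum amyloid A proteins that circulate on high-density lipoprotein in the acute phase. The brighter Saa1 probe read -1.56, -1.15 and -0.54 in AdipoKO_WAT 1-2, 3 and 4, against 0.19, 0.20, -0.76 and -0.27 in CTL_WAT 1 to 4. The groups overlapped through AdipoKO_WAT 4, and the difference of -0.92 ± 0.30 did not pass (adjusted p = 0.229). The second Saa1 probe read -4.26, -2.81 and -3.83 in the knockout samples, against -0.91, -3.75, -4.42 and -2.19 in the controls, a difference of -0.82 ± 0.66 (adjusted p = 0.462). Saa2 read -6.13, -3.90 and -5.67 in the knockout samples, against -1.65, -4.28, -5.06 and -3.09 in the controls. Saa2 was well above background on 1 of 4 AdipoKO_WAT arrays and 4 of 4 CTL_WAT arrays, so its difference of -1.72 ± 0.73 (adjusted p = 0.265) rests on a dim knockout group.

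CTL_WAT 1 and 4 were highest of the white fat samples for Saa2 and for the second Saa1 probe, but the brighter Saa1 probe was as high in CTL_WAT 2. The same 2 samples carried intestinal transcripts: the median level of 12 intestinal epithelium markers, relative to each gene's mean over samples, was 6.98 and 5.72 in CTL_WAT 1 and 4. It was -1.50, -0.46 and -0.88 in AdipoKO_WAT 1-2, 3 and 4, and -1.59 and 0.91 in CTL_WAT 2 and 3. All 12 intestinal markers were well above background on at least 1 array of each white fat group, and their summed level ran from 4.88 to 7.27 in AdipoKO_WAT and from 3.90 to 692 in CTL_WAT. Without CTL_WAT 1 and 4 the Saa2 difference was -0.57 (adjusted p = 0.628), and the difference of the brighter Saa1 probe was -0.80 (adjusted p = 0.456). The part of intestinal RNA in the Saa2 signal was not tested.

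Hp encodes haptoglobin, which binds free haemoglobin. Its level was 3.92 in AdipoKO_WAT 1-2, 4.49 in AdipoKO_WAT 3 and 6.83 in AdipoKO_WAT 4, against 7.21, 7.15, 6.70 and 6.68 in CTL_WAT 1 to 4. AdipoKO_WAT 1-2 and 3 were far below the controls and AdipoKO_WAT 4 lay within their range. That placing depends on the scaling. Before it, the Hp signal was 55200 in AdipoKO_WAT 4, against 86380 to 116470 in CTL_WAT. The array's 75th percentile was 486 in AdipoKO_WAT 4, against 725 to 1035 in CTL_WAT. The difference was -1.85 ± 0.50 (adjusted p = 0.187; exact permutation p = 0.0857). Within the 4 slides it was -2.71, -3.25, 0.12 and -2.73, and slide 3 held AdipoKO_WAT 4.

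Orm1 and Orm2 encode orosomucoids, also called alpha-1-acid glycoproteins, which bind lipophilic molecules in plasma. Orm1 was -0.66, 0.32 and 3.10 in AdipoKO_WAT 1-2, 3 and 4, against 2.36, 3.14, 1.94 and 1.92 in CTL_WAT 1 to 4. Orm2 was -0.05, 0.68 and 3.73 in the same knockout samples, against 2.45, 3.51, 2.34 and 2.25 in the controls. For Orm2 AdipoKO_WAT 4 was above every control, and for Orm1 it was above 3 of the 4. The Orm2 rank depends on the scaling. Before it, the Orm2 signal was 6463.3 in AdipoKO_WAT 4, against 3949.3 to 9340.5 in CTL_WAT. The differences of -1.42 ± 0.64 for Orm1 (adjusted p = 0.271) and -1.18 ± 0.65 for Orm2 (adjusted p = 0.322) did not pass.

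Serpina3n encodes a secreted inhibitor of serine proteases, among them granzyme B. It was 0.24, 0.31 and 1.36 in AdipoKO_WAT 1-2, 3 and 4, against 1.31, 2.33, 1.34 and 1.31 in CTL_WAT 1 to 4, a difference of -0.94 ± 0.59 (adjusted p = 0.364). Itih4, an inter-alpha-trypsin inhibitor heavy chain cleaved by plasma kallikrein, was -3.77, -2.45 and -1.86 in the knockout samples, against -2.28, -4.54, -2.86 and -3.27 in the controls. Its groups overlapped widely (0.55 ± 0.59, adjusted p = 0.567), and it was the one tested gene with a higher mean in AdipoKO_WAT.

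The adipocyte marker levels of the same samples moved with these values. The median level of 10 adipocyte markers was -1.73, -0.91 and 0.80 in AdipoKO_WAT 1-2, 3 and 4, against 0.30, 0.31, -0.10 and -0.29 in CTL_WAT 1 to 4, and all 10 markers had a lower mean in AdipoKO_WAT. Their summed level ran from 608 to 2595 in AdipoKO_WAT and from 1231 to 1835 in CTL_WAT. The samples with the lowest adipocyte level had the lowest Hp, Orm1 and Orm2. AdipoKO_WAT 4, with the highest adipocyte level, had the highest Orm2 after scaling. B cell markers ran the other way, at 5.13, 4.87 and -1.31 in AdipoKO_WAT 1-2, 3 and 4, against 0.38, -0.09, 3.68 and 3.06 in CTL_WAT 1 to 4.

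Fibroblast and adipose progenitor markers were -0.91, -0.76 and 0.80 in AdipoKO_WAT 1-2, 3 and 4, against 1.66, 1.74, 0.28 and 0.90 in CTL_WAT 1 to 4. All 10 had a lower mean in AdipoKO_WAT (median difference -1.37), none passed the test, and their summed level ran from 91.5 to 300.9 in AdipoKO_WAT and from 210.4 to 483 in CTL_WAT.

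Mesothelial markers moved with Saa3. Their median level, over 7 measured markers, was -1.16, 0.97 and 2.92 in AdipoKO_WAT 1-2, 3 and 4, against 4.65, 4.71, 3.46 and 4.00 in CTL_WAT 1 to 4, so here too every knockout sample was below every control. All 7 had a lower mean in AdipoKO_WAT and 1 of them passed the test, which 0.0597% of all genes did. Their summed level ran from 1.38 to 16.9 in AdipoKO_WAT and from 18.1 to 71.8 in CTL_WAT, and Muc16 was not well above background in either group. Macrophage markers were 1.23, 1.08 and 0.15 in the knockout samples, against 1.33, 1.90, 1.03 and 1.02 in the controls. Of 10 hepatocyte markers, Apoa1, Serpina1a and Serpina1b were not well above background in any group. The other 7 were measured, with a summed level from 3.84 to 81.9 in AdipoKO_WAT and from 31.9 to 81.0 in CTL_WAT, and 5 of them had a higher mean in AdipoKO_WAT. The part of lymphocyte, fibroblast, hepatocyte and mesothelial content in the acute phase results was not tested. Adipocyte content entered only as the covariate given next, which cannot tell it apart from genotype.

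**Figure D2:**
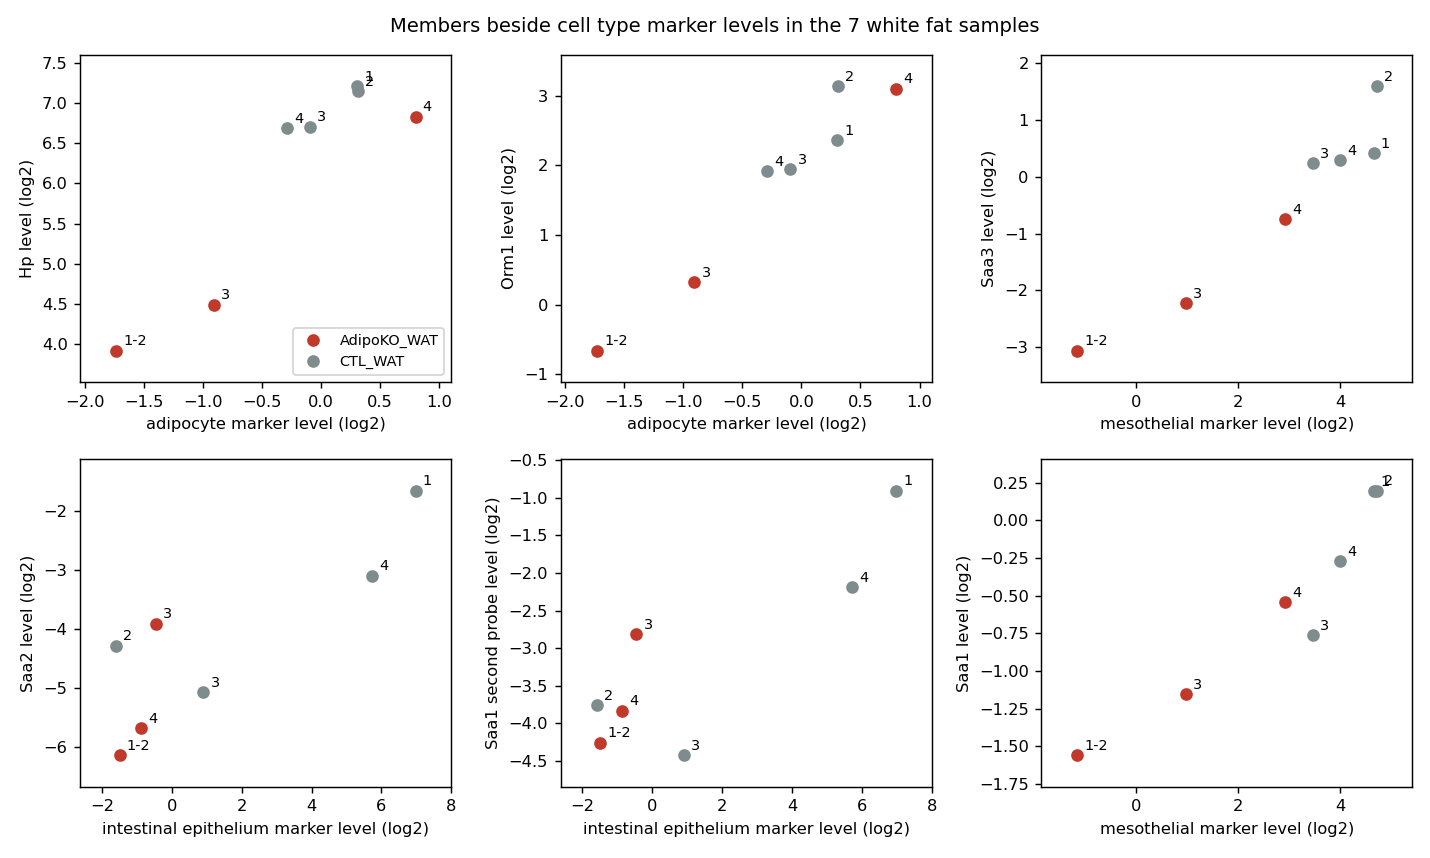
Levels of Hp, Orm1, Saa3, Saa2 and both Saa1 probes (log2, y axes) against the median level of adipocyte, mesothelial or intestinal epithelium markers (log2, x axes) in the 7 white fat samples, labelled by replicate. AdipoKO_WAT 1-2 and 3 sit lowest for Hp, Orm1 and Saa3, and CTL_WAT 1 and 4 sit apart for Saa2 and the second Saa1 probe, at intestinal levels of 6.98 and 5.72. Points share the array's scaling.

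Whether genes passed depended on which white fat knockout samples entered. Without AdipoKO_WAT 4, 36.8% of all genes passed, and 5 of the 8 did, all lower in the knockout samples: Saa3 (-3.28, adjusted p = 0.000367), Hp (-2.73, adjusted p = 0.0001), Orm1 (-2.51, adjusted p = 0.000644), Orm2 (-2.32, adjusted p = 0.000693) and Saa1 (-1.19, adjusted p = 0.00955). With only AdipoKO_WAT 4 against the controls, Saa3 differed by -1.38 (adjusted p = 0.311), Hp by -0.11 (adjusted p = 0.889), Orm1 by 0.76 (adjusted p = 0.473) and Orm2 by 1.10 (adjusted p = 0.308), the lone sample being assumed to vary like the other groups. With each sample's adipocyte marker level as a covariate, Saa3 (-1.99, adjusted p = 0.0441) and Hp (-1.07, adjusted p = 0.0250) passed, while Orm1 (-0.44 ± 0.30, adjusted p = 0.464) and Orm2 (-0.19 ± 0.31, adjusted p = 0.755) did not. In that fit 0.179% of all genes passed. The covariate had 1 slope over all 4 groups. It ran from -1.73 to 0.80 in AdipoKO_WAT, against -0.29 to 0.31 in CTL_WAT. The Hp SE fell from 0.50 to 0.17. This fit therefore cannot tell a genotype difference in white fat apart from adipocyte content. These 2 settings, the lone sample and the covariate, were chosen after seeing the data.

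The brown fat comparison asked the same of knockout against control brown fat. Again 0 of the 8 genes passed, where 0.0159% of all genes passed. The median difference of the 8 genes was -0.22, against 0.10 over all genes. The groups of Orm1 and Orm2 did not overlap, and those of the other 6 tested genes did. The knockout group lay wholly below the controls for 8.62% of all genes, and groups did not overlap in either direction for 18.0%.

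Orm1 was 0.94, 0.76, 1.58 and 1.0 in AdipoKO_BAT 1 to 4, against 2.60, 3.08, 2.35 and 2.64 in CTL_BAT 1 to 4. All 4 knockout samples were below all 4 controls. The difference was -1.60 ± 0.59, 3.03-fold, with an adjusted p of 0.280 and an exact permutation p of 0.0286, the smallest that 4 against 4 allows. The limma error uses 1 spread shared by all 4 groups. The Orm1 SD was 0.36 in AdipoKO_BAT and 0.30 in CTL_BAT, against 1.95 in AdipoKO_WAT. Orm2 was 1.65, 1.41, 2.05 and 1.47 in AdipoKO_BAT 1 to 4, against 3.04, 3.45, 2.72 and 2.93 in CTL_BAT 1 to 4. Its difference was -1.39 ± 0.60, 2.63-fold (adjusted p = 0.344, exact permutation p = 0.0286), and its samples were also fully separated.

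Orm3, the remaining mouse orosomucoid gene, lies between Orm1 and Orm2 on chromosome 4 and was not among the 9 genes. It was 0.37, -0.0043, 0.32 and 0.36 in AdipoKO_BAT 1 to 4, against 1.89, 1.75, 1.76 and 1.77 in CTL_BAT 1 to 4. The difference was -1.53 ± 0.39 (adjusted p = 0.190), with SDs of 0.18 in AdipoKO_BAT, 0.068 in CTL_BAT and 1.28 in AdipoKO_WAT. All knockout samples were below all controls, as for 8.62% of all genes. Within the 4 slides Orm1 differed by -2.14, -1.60, -1.01 and -1.64, Orm2 by -1.81, -1.31, -0.99 and -1.47, and Orm3 by -1.38, -1.76, -1.58 and -1.41. The direction was the same on every slide for these 3 genes, although which of their transcripts each probe reads is uncertain.

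**Figure D3:**
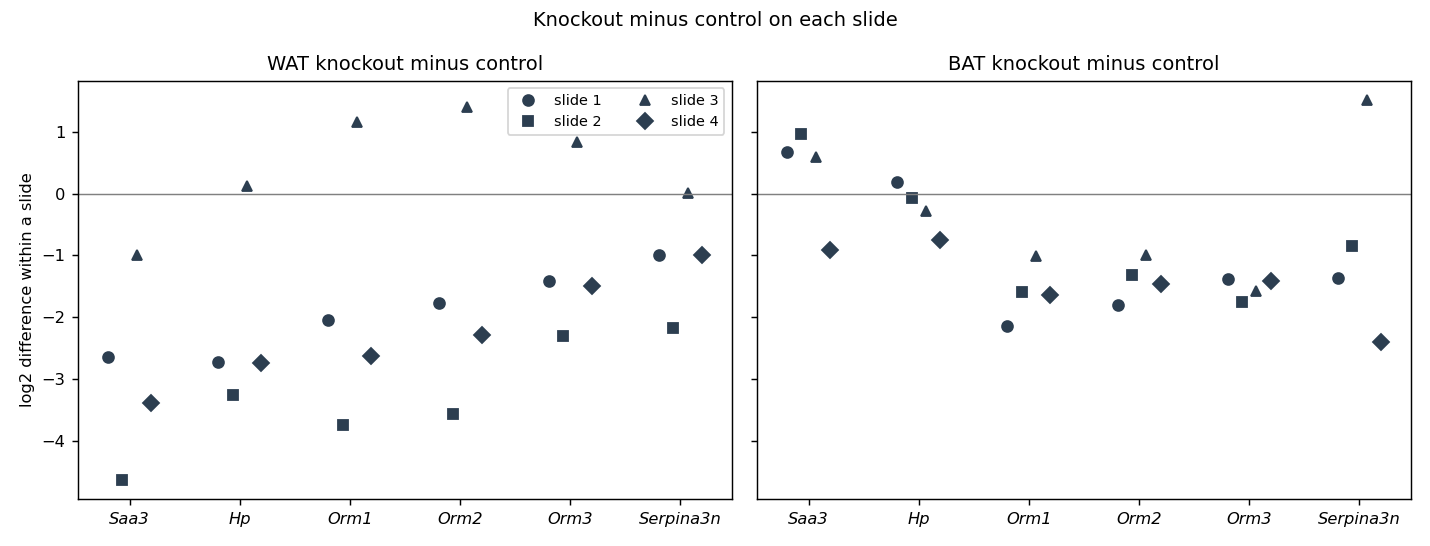
Knockout minus control within each of the 4 slides (log2 difference, y axis) for Saa3, Hp, Orm1, Orm2, Orm3 and Serpina3n, in white fat on the left and brown fat on the right. In brown fat the Orm1, Orm2 and Orm3 points lie between -0.99 and -2.14 on all slides, and in white fat slide 3, which held AdipoKO_WAT 4, lies at 1.16 for Orm1 and 1.40 for Orm2.

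The adipocyte marker level of the brown fat samples ran from 0.14 to 0.37 in AdipoKO_BAT and from -0.02 to 0.22 in CTL_BAT, and 8 of its 10 markers had a higher mean in AdipoKO_BAT. With that level as a covariate in the fit, 0.554% of all genes passed, and both orosomucoid genes did, Orm1 at -1.76 (adjusted p = 0.0240) and Orm2 at -1.56 (adjusted p = 0.0320). The covariate had 1 slope over all 4 groups, and its range was widest in AdipoKO_WAT, from -1.73 to 0.80. The Orm1 estimate moved little, from -1.60, while its SE fell from 0.59 to 0.25. This setting therefore cannot show an adjustment for adipocyte content within brown fat. Skeletal muscle markers ran from 2.55 to 5.22 in AdipoKO_BAT and from -1.14 to 3.02 in CTL_BAT, so muscle marker levels differed between brown fat samples. Their summed level ran from 151 to 857 in AdipoKO_BAT and from 10.8 to 230.5 in CTL_BAT, all 10 were measured, and none was below background in both groups. The part of muscle RNA in the orosomucoid result was not tested. AdipoKO_BAT 1 and 2 had the dimmest arrays of the study by the 75th percentile, and without them Orm1 differed by -1.38 and Orm2 by -1.28.

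Hp, the haptoglobin gene, was 7.56, 7.35, 6.99 and 6.77 in AdipoKO_BAT 1 to 4, against 7.26, 7.38, 7.43 and 7.53 in CTL_BAT 1 to 4 (-0.23 ± 0.46, adjusted p = 0.899). Saa3 was -3.21, -2.64, -3.43 and -4.02 in AdipoKO_BAT, against -4.01, -3.87, -3.61 and -3.11 in CTL_BAT (0.33 ± 0.46, adjusted p = 0.842). The brighter Saa1 probe ran from -1.47 to -0.59 in AdipoKO_BAT, against -1.52 to -1.09 in CTL_BAT (0.28 ± 0.28, adjusted p = 0.748). These 3 genes had overlapping groups. For Hp the overlap depends on the scaling. Before it, the signal ran from 52230 to 62949 in AdipoKO_BAT and from 86142 to 92379 in CTL_BAT. The 75th percentile ran from 298 to 497 in AdipoKO_BAT and from 501 to 561 in CTL_BAT.

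Serpina3n was -3.81, -3.73, -1.28 and -3.65 in AdipoKO_BAT 1 to 4, against -2.79, -2.45, -2.87 and -1.25 in CTL_BAT 1 to 4. One sample of each group, AdipoKO_BAT 3 and CTL_BAT 4, was far above the others. The difference was -0.78 ± 0.55 (adjusted p = 0.595). Itih4 ran from -2.80 to -1.14 in AdipoKO_BAT, against -2.81 to -1.18 in CTL_BAT, with nearly the same range. Saa2 ran from -6.30 to -4.56 in AdipoKO_BAT and from -5.70 to -4.51 in CTL_BAT. It was well above background on 0 of 4 AdipoKO_BAT arrays and 1 of 4 CTL_BAT arrays, so no fold is given for it in brown fat.

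Whether the knockout difference itself differed between the depots was tested as the interaction of genotype and depot, brown minus white. None of the 8 genes passed, where 0.00398% of all genes passed. Saa3 had the interaction with the smallest adjusted p of the 8 (2.98 ± 0.68, adjusted p = 0.347), followed by Saa1 (1.20 ± 0.41, adjusted p = 0.391) and Hp (1.62 ± 0.68, adjusted p = 0.448). For Orm1 and Orm2 the interactions were -0.18 ± 0.87 and -0.21 ± 0.89 (adjusted p = 0.958 and 0.949), with errors that leave room for differences of either sign. Without AdipoKO_WAT 4, 16.2% of all genes passed, and with them Saa3 (3.61), Hp (2.50) and Saa1 (1.47).

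**Figure D4:**
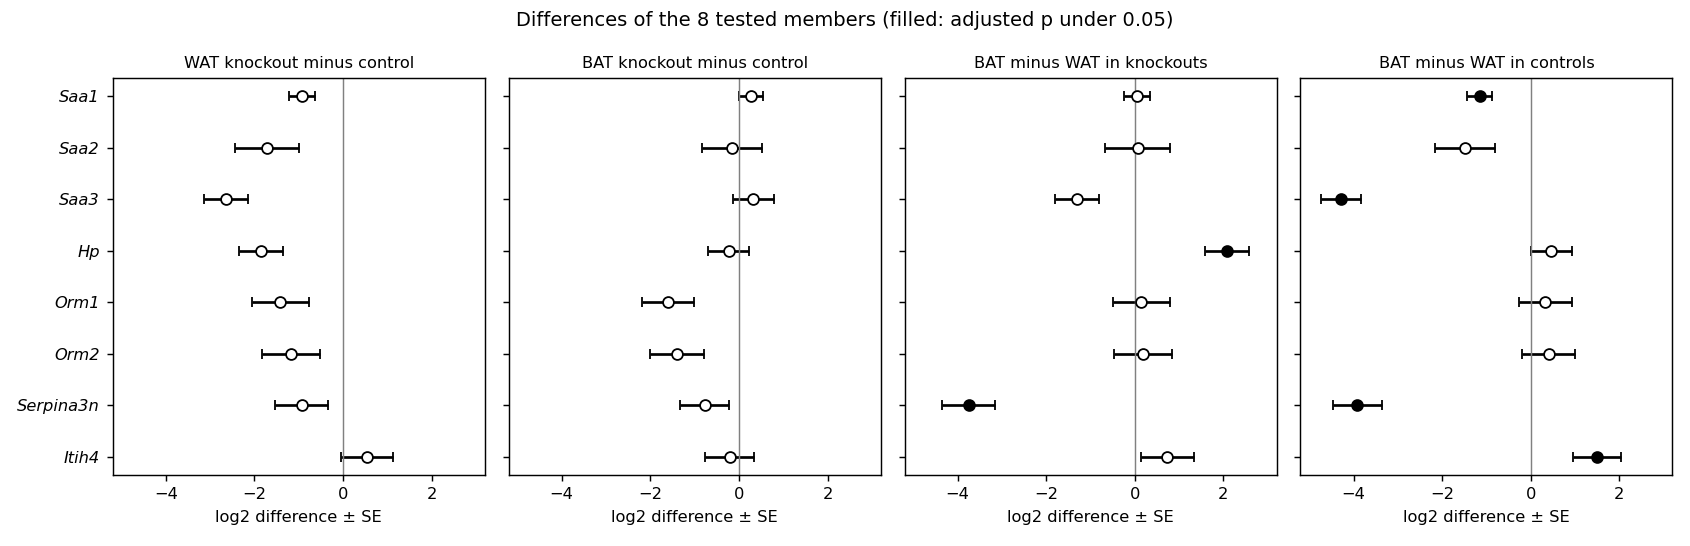
Log2 difference ± SE (x axes) of the 8 tested genes in 4 comparisons, from the limma fit over 15 samples, with filled points for an adjusted p under 0.05. No point is filled for knockout minus control in white or brown fat, whereas Hp and Serpina3n are filled for brown minus white fat in knockouts and Saa1, Saa3, Serpina3n and Itih4 in controls.

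Brown fat was also set against white fat within each genotype. In controls 4 of the 8 genes passed, where 33.4% of all genes passed, and the groups of 4 genes did not overlap, where 43.3% of all genes did not. Saa3 was 19.5-fold lower in CTL_BAT, at -3.65 ± 0.40 in CTL_BAT and 0.63 ± 0.64 in CTL_WAT (SD, n = 4 each, adjusted p = 1.28e-05). Serpina3n was 15.1-fold lower, at -2.34 ± 0.75 in CTL_BAT and 1.57 ± 0.51 in CTL_WAT (SD, n = 4 each, adjusted p = 0.00011). The brighter Saa1 probe was lower as well (-1.31 ± 0.23 in CTL_BAT and -0.16 ± 0.46 in CTL_WAT, SD, n = 4 each, adjusted p = 0.00584), whereas the second Saa1 probe did not pass (-0.96 ± 0.61 SE, adjusted p = 0.255).

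Itih4 was higher in CTL_BAT, at -1.74 ± 0.73 in CTL_BAT and -3.24 ± 0.96 in CTL_WAT (SD, n = 4 each), but only just passed (adjusted p = 0.0490). Its groups overlapped, and the call was lost under 15 alternative settings, with normexp background correction at 0.50 (adjusted p = 0.468). Hp was 7.26 to 7.53 in CTL_BAT and 6.68 to 7.21 in CTL_WAT, without overlap, yet its difference of 0.46 ± 0.46 did not pass (adjusted p = 0.492) and turned to -0.35 with quantile normalization. With only CTL_BAT and CTL_WAT in the fit it just passed (0.46 ± 0.16, adjusted p = 0.0498), as did 42.9% of all genes. The lack of overlap for Hp depends on the scaling. Before it, the signal ran from 86142 to 92379 in CTL_BAT and from 86380 to 116470 in CTL_WAT. The 75th percentile ran from 501 to 561 in CTL_BAT and from 725 to 1035 in CTL_WAT. Orm1 and Orm2 had overlapping groups in controls (0.33 ± 0.59 and 0.40 ± 0.60).

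In knockouts 2 of the 8 genes passed, where 30.6% of all genes passed. Serpina3n was 13.5-fold lower in AdipoKO_BAT, at -3.12 ± 1.23 in AdipoKO_BAT and 0.64 ± 0.63 in AdipoKO_WAT (SD, n = 4 and 3, adjusted p = 0.000416), and every brown fat sample lay below every white fat sample, which held for 25.5% of all genes in either direction. Hp was higher in AdipoKO_BAT (2.09 ± 0.50 SE, adjusted p = 0.00647), at 7.17 ± 0.35 in AdipoKO_BAT and 5.08 ± 1.54 in AdipoKO_WAT (SD, n = 4 and 3). The Hp call was lost with AdipoKO_WAT 4 as the only white fat knockout sample (0.34, adjusted p = 0.615), without AdipoKO_BAT 1 and 2 (1.80, adjusted p = 0.0526) and with only the groups compared in the fit (adjusted p = 0.0721). Saa3 differed by -1.31 ± 0.50 (adjusted p = 0.0616). The depot and the genotype comparisons share samples, the controls included, so their values are given side by side and were not set against each other.

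The depots also differed in markers of other cells. Mesothelial markers ran from -3.05 to -1.83 in CTL_BAT and from 3.46 to 4.71 in CTL_WAT, and in CTL_BAT 3 of the markers, Wt1, Gpm6a and Muc16, were not well above background. All 10 macrophage markers were lower in CTL_BAT, with levels from -1.02 to -0.79 in CTL_BAT and from 1.02 to 1.90 in CTL_WAT. All 10 fibroblast and adipose progenitor markers had a lower mean in CTL_BAT and 8 of them passed, where 33.4% of all genes passed. Their levels ran from -0.88 to -0.31 in CTL_BAT and from 0.28 to 1.74 in CTL_WAT. The part of these cells in the Saa3 and Serpina3n depot differences was not tested. All 10 skeletal muscle markers were higher in CTL_BAT, with levels from -1.14 to 3.02 in CTL_BAT and from -3.42 to -2.41 in CTL_WAT. Without CTL_WAT 1 and 4, the samples with intestinal transcripts, Saa3 and Serpina3n still passed, and Saa1 (-1.03, adjusted p = 0.0591) and Itih4 (1.96, adjusted p = 0.0549) did not.

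Il6 was dim everywhere, and its difference was not tested in the main fit. On the arrays of AdipoKO_WAT 1 and 2 all 10 Il6 spots were well above background, with median signals of 28.0 and 35.8. On AdipoKO_WAT 3 the spots were as bright, from 29.7 to 39.6, but only 2 of 10 were marked well above background, and on AdipoKO_WAT 4 none was, at a median of 4.52. On CTL_WAT 1 to 4, 1, 1, 0 and 5 of the 10 spots were well above background, at median signals of 10.5, 8.78, 13.1 and 21.9. On each brown fat array 0 or 1 of the 10 spots was well above background.

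The Il6 level was -4.52, -4.36 and -6.74 in AdipoKO_WAT 1-2, 3 and 4, against -5.96, -6.49, -5.93 and -5.76 in CTL_WAT 1 to 4. AdipoKO_WAT 1-2 and 3 were above every control and AdipoKO_WAT 4 below every control. The probe as a whole was well above background on 2 of 4 AdipoKO_WAT arrays, both of AdipoKO_WAT 1-2, and on 0 of 4 CTL_WAT arrays, so no fold is given. When dim probes were kept in the fit, the difference was 0.83 ± 0.46 (adjusted p = 0.340), and the exact permutation p was 0.286. The 2 samples with the brightest Il6 had the lowest adipocyte and the highest B cell marker levels, whose part was not tested. In brown fat Il6 ran from -6.81 to -5.87 in AdipoKO_BAT and from -7.01 to -6.64 in CTL_BAT, all near background.

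Genes around Il6 in its pathway were read from lists. The lists were chosen with earlier results of these data known. Of 13 tested ligands and receptors of the interleukin 6 family, 0 passed in white fat, and the median difference was -0.03. In brown fat 0 passed as well, with a median of 0.17. The 2 with the smallest adjusted p in white fat were Il11ra1, a receptor of interleukin 11 (-0.67 ± 0.26, adjusted p = 0.253), and Il11 itself (-0.70 ± 0.28, adjusted p = 0.255). Between depots in controls 3 were higher and 6 lower in CTL_BAT, in a comparison in which 33.4% of all genes passed. Among the lower ones were Osmr, the oncostatin M receptor (-1.28 ± 0.21, adjusted p = 0.000336), and Il6ra, the interleukin 6 receptor (-0.78 ± 0.19, adjusted p = 0.0059). Cntfr, the receptor of ciliary neurotrophic factor, was higher in CTL_BAT (1.36 ± 0.18, adjusted p = 9.12e-05).

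Downstream of the receptor, the list of JAK, STAT3 and C/EBP genes held 15 tested genes. In white fat 0 passed (median 0.41), with Tyk2, a Janus kinase, at 0.60 ± 0.22 (adjusted p = 0.243) and Jak1 at 0.69 ± 0.27 (adjusted p = 0.256). In brown fat 0 passed (median 0.05). Stat3 there was 4.12, 4.15, 3.23 and 2.90 in AdipoKO_BAT 1 to 4, against 2.63, 2.57, 2.65 and 2.81 in CTL_BAT 1 to 4. Its groups did not overlap, as for 18.0% of all genes in either direction, and AdipoKO_BAT 4 at 2.90 was just above CTL_BAT 4 at 2.81. AdipoKO_BAT 1 and 2, the dimmest arrays, were far above the rest (0.94 ± 0.27, adjusted p = 0.203). Cebpd, a C/EBP factor induced in inflammation, differed by 0.51 ± 0.21 in brown fat (adjusted p = 0.324). Between depots in controls 2 were higher and 3 lower in CTL_BAT, which is near the 33.4% of all genes that passed. Cebpb, another C/EBP factor, was higher in CTL_BAT (2.94 ± 0.25, adjusted p = 1.88e-06), whereas Cebpd was lower (-1.94 ± 0.21, adjusted p = 1.18e-05).

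Among 22 tested genes of the interleukin 1, tumour necrosis factor and NF-kB arm, 0 passed in white fat (median 0.30) and 0 in brown fat (median 0.22). Cxcl5, a neutrophil chemokine gene, was -3.64, -3.98 and -7.04 in AdipoKO_WAT 1-2, 3 and 4, against -6.91, -7.91, -7.69 and -6.88 in CTL_WAT 1 to 4. It was well above background on 3 of 4 AdipoKO_WAT arrays, of which arrays 1 and 2 count as 1 sample, and on 0 of 4 CTL_WAT arrays. AdipoKO_WAT 4 lay within the range of these dim controls, so no fold is given. The Cxcl5 difference did not pass (adjusted p = 0.177). Nfkbia, an inhibitor of NF-kB, differed by 0.90 ± 0.33 in brown fat (adjusted p = 0.272). Between depots in controls 10 of the 22 passed as lower in CTL_BAT and 0 as higher, where 33.4% of all genes passed. Ccl2, a monocyte chemokine gene (-2.80 ± 0.24, adjusted p = 2.23e-06), and the toll-like receptor gene Tlr2 (-2.35 ± 0.23, adjusted p = 6.62e-06) were among them.

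Other positive acute phase genes gave a wider view of the same proteins. Of 26 tested, 0 passed in white fat, with a median difference of 0.01, and 0 passed in brown fat, with a median of 0.01. Serpina3k, a relative of Serpina3n, was -5.55, -4.44 and -2.67 in AdipoKO_WAT 1-2, 3 and 4, against -2.11, -0.46, -0.54 and -1.01 in CTL_WAT 1 to 4. Every knockout sample lay below every control (-3.19 ± 0.86, adjusted p = 0.189), as for 1.23% of all genes. The probe was well above background on 1 of 4 AdipoKO_WAT arrays and 4 of 4 CTL_WAT arrays. It passed the filter on dim probes only through CTL_WAT, which favours a lower knockout group, so the separation is no support by itself. Agt, the angiotensinogen gene, was -0.41, 0.48 and 3.57 in the knockout samples, against 3.44, 4.07, 3.19 and 3.23 in the controls (-2.27 ± 0.75, adjusted p = 0.232), again with AdipoKO_WAT 4 within the range of the controls. In brown fat Cp, the ceruloplasmin gene, differed by -0.54 ± 0.21 (adjusted p = 0.308).

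Between depots in controls 10 of the 26 passed as lower in CTL_BAT and 1 as higher, where 33.4% of all genes passed. Lower ones included Lbp, the lipopolysaccharide-binding protein gene (14.2-fold, adjusted p = 0.00022), and the complement genes Cfb (10.6-fold, adjusted p = 3.12e-06) and C4b (5.78-fold, adjusted p = 0.000109). Of 7 tested negative acute phase genes, whose proteins fall in inflammation, 0 passed in white fat (median -0.20) and 0 in brown fat (median 0.14). Against CTL_WAT, 1 passed as higher and 3 as lower in CTL_BAT, again beside 33.4% of all genes. Ahsg, the fetuin A gene (-1.55 ± 0.64, adjusted p = 0.260), and Rbp4, the retinol-binding protein gene (-1.15 ± 0.58, adjusted p = 0.298), had the smallest adjusted p in white fat.

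Receptors and partners of the acute phase proteins held 8 tested genes, of which 0 passed between genotypes in either fat and 7 had a lower mean in AdipoKO_WAT (median -0.50 in white fat and 0.08 in brown fat). Cd163, the macrophage receptor that takes up haptoglobin bound to haemoglobin, was -1.75, -1.19 and 0.67 in AdipoKO_WAT 1-2, 3 and 4, against 2.24, 2.16, 0.73 and 1.01 in CTL_WAT 1 to 4. All knockout samples were below all controls (-2.29 ± 0.50, 4.89-fold, adjusted p = 0.148), as for 1.23% of all genes, but AdipoKO_WAT 4 at 0.67 was close to CTL_WAT 3 at 0.73. Between depots in controls 2 of the 8 passed as lower in CTL_BAT, where 33.4% of all genes passed. They were Cd163 (-2.23 ± 0.46, adjusted p = 0.00214) and Cd14, a lipopolysaccharide receptor (-1.01 ± 0.31, adjusted p = 0.0225). In the interaction 0 genes of any of these lists passed.

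The genes whose pattern over all 15 samples was most like each acute phase gene were found by Pearson correlation of levels, given as a description, since all points share the scaling of the arrays and the contrast of the depots. Orm1 and Orm2 were most like each other (r = 0.991), and each was next most like Aldh1l1, a folate enzyme gene (r = 0.957 for Orm1 and 0.955 for Orm2). Hp was most like the haemoglobin genes Hbb-bt (r = 0.984) and Hba-a1 (r = 0.978) and the heat shock gene Hspb1 (r = 0.974). Saa3 was most like Serpinb2, a plasminogen activator inhibitor gene (r = 0.981), Tent5b (r = 0.975) and Kcnab1 (r = 0.973). Saa1 was most like Mgp, the matrix Gla protein gene (r = 0.979), Etv1 (r = 0.960) and Cacna1g (r = 0.959). Serpina3n was most like Fn1, the fibronectin gene (r = 0.976), Ildr2 (r = 0.971) and Col14a1, a collagen gene (r = 0.967). Itih4 was most like Olfr847 (r = 0.978), Vmn2r5 (r = 0.934) and Ifna5 (r = 0.928), an olfactory receptor gene, a vomeronasal receptor gene and an interferon gene.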

How the data were processed

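Each array is 1 GEO sample with an authors' scanner file and a column of a deposited value table. Per the file headers, Agilent Feature Extraction 12.0.0.7 made the processed signal intensity, subtracting background within each array with no scaling between arrays. The deposited table's intensity matched that signal, averaged over repeated spots, to within 0.0001 of its size. Other processing is not given in the sources used here.

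Spots of a probe were averaged and control spots left out. Levels are log2 of the processed intensity deposited by the authors, minus the log2 of the array's 75th percentile. A probe was kept if well above background on at least 3 arrays of a group, and the probe with the highest mean level stood for its gene. Accessions named 28223 of 41174 probes through RefSeq (GRCm38.p6), and 12951 stayed unnamed. All adjusted p-values are from limma 3.58.1 in R 4.3.3 (lmFit and eBayes, 11 residual degrees of freedom, Benjamini-Hochberg over 25105 genes and unnamed probes, threshold 0.05), which was also tested on simulated data. Exact permutation tests were two-sided. The labels name replicates as biological, and p-values measure the spread between these samples. In the limma fit that spread is 1 value per gene, shared by all 4 groups. The errors of the brown fat and control comparisons therefore include the spread among the white fat knockout samples. Each of the 4 slides held 1 array of each group, always at the same position, so position and group cannot be told apart. Same-numbered samples did not deviate together (correlations from -0.424 to 0.287), so the numbers were not taken as pairs. All 9 genes were named, and in each list up to 4 genes that passed, or else the 2 with the smallest adjusted p, and the 3 genes most alike each acute phase gene that was well above background in every group. Orm3 is named as a gene of the list of other acute phase proteins. The genes and lists were chosen with earlier results of these data known.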

Additional observations from a re-analysis of the deposited data

Results flagged for a closer look

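In 5 of 30 groups of 4 samples examined, 1 sample lay far from the other 3 by Dixon's ratio of gap to range. Chance gives this in about 1 of 20 independent groups. The groups here read related genes in the same samples and are not independent, so the count cannot show an excess. CTL_WAT 2 was such a sample for 3 genes: Saa3 at 1.5938, where the other white fat controls ran from 0.24 to 0.41, Serpina3n at 2.3334, where they ran from 1.31 to 1.34, and Orm2 at 3.5051, where they ran from 2.25 to 2.45. AdipoKO_BAT 3 was high for Serpina3n at -1.2798, where the other brown fat knockout samples ran from -3.81 to -3.65. CTL_BAT 2 was low for the second Saa1 probe at -4.1268, where the other brown fat controls ran from -3.68 to -3.63.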

How the results depend on the processing

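The number of the 8 genes that passed was within 1.5 times the main count in 138 recalculations and not in 11. In white fat, with 0 genes in the main setting, 2 passed with AdipoKO_WAT 1 and 2 as 2 samples (1.11% of all genes) and 2 with the adipocyte covariate (0.179%), and leaving out 1 sample gave 0 to 5, the 5 without AdipoKO_WAT 4 (36.8%). In brown fat 2 passed with the covariate (0.554%), and leaving out 1 sample gave 0 to 0. The interaction gave 0 to 3, the 3 without AdipoKO_WAT 4 (16.2%). For brown minus white in controls, 2 passed without CTL_WAT 1 and 4 (21.0%), and leaving out 1 sample gave 3 to 4 (26.4% to 42.2% of all genes). In knockouts 1 passed with only the groups compared (11.9%), 1 without AdipoKO_BAT 1 and 2 (27.2%), 4 without AdipoKO_WAT 1-2 and 3 (11.3%) and 5 with the covariate (24.3%), and leaving out 1 sample gave 2 to 4, with 4 without AdipoKO_WAT 4 (45.6%). With the replicate block, 0 passed in white fat, 0 in brown fat, 0 for the interaction, 4 in controls (31.1%) and 2 in knockouts (28.5%).

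Of single genes, 51 values changed sign, none of which had passed in the main setting. Brown minus white in knockouts turned for Saa1 (-0.11), Saa2 (-0.088) and Orm1 (-0.0066) with the percentile over bright probes, for Saa1 (-0.0053) and Orm1 (-0.017) with normexp, for Saa1 (-0.25) and Saa2 (-0.51) without AdipoKO_BAT 1 and 2, for Saa1 (-0.37), Saa2 (-0.10), Orm1 (-1.11) and Orm2 (-1.09) with the covariate, and for Saa1 (-0.49), Orm1 (-2.03), Orm2 (-2.09) and Itih4 (-0.10) without AdipoKO_WAT 1-2 and 3. Leaving out 1 sample, it ran from -0.19 to 0.32 for Saa1, from -0.38 to 0.74 for Saa2, from -0.64 to 1.24 for Orm1 and from -0.56 to 1.33 for Orm2. In controls Hp turned to -0.35 with quantile normalization. The white fat difference turned for Orm1 (0.76) and Orm2 (1.10) without AdipoKO_WAT 1-2 and 3. The brown fat difference turned for Saa2 (0.51) and Serpina3n (0.068) with normexp and for Saa1 (-0.018) and Saa3 (-0.071) without AdipoKO_BAT 1 and 2, and ran from -0.40 to 0.21 for Saa2 and from -0.57 to 0.070 for Itih4 when 1 sample was left out. The interaction turned for Orm1 and Orm2 with AdipoKO_WAT 1 and 2 as 2 samples (0.22 and 0.16), with quantile normalization (0.11 and 0.044) and without CTL_WAT 1 and 4 (0.021 and 0.073), for Orm1 (0.043) without AdipoKO_BAT 1 and 2, for Serpina3n (-0.19) with the covariate, and for Hp (-0.12) and Serpina3n (-0.56) without AdipoKO_WAT 1-2 and 3. Leaving out 1 sample, it ran from -0.97 to 0.91 for Orm1, from -0.96 to 0.93 for Orm2 and from -0.45 to 0.53 for Serpina3n. The cause of these changes was not tested. The covariate, the fits without AdipoKO_WAT 1-2 and 3 and the use of the other Saa1 probe were chosen after seeing the data.

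Normexp moved the median brown fat difference of all genes to 0.34, against 0.10 in the main setting. Saa2 and Il6 were near background, which limits what their values can show. The share of probes above background ran from 66.7% to 83.6% over the arrays.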
